A study of Homo sapiens with 27 samples.

Results

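The transcriptome of 22Rv1 cells that carried RIPK2 gRNA 1 was compared with that of 22Rv1 cells that carried a control gRNA. 22Rv1 is an established human prostate cancer cell line that grows from epithelium with luminal features. The comparison used 6 of the 27 libraries of the series, 3 with the control gRNA (genotype WT) and 3 with RIPK2 gRNA 1 (genotype RIPK2 knockout), and 15198 of the 24379 genes in the count table passed a filter on low counts. In 3 further 22Rv1 libraries the cells carried RIPK2 gRNA 10, also labelled RIPK2 knockout. These lent their spread to the fit and are set beside gRNA 1 where that is said. The labels give no treatment and no time point, and none of the groups is said to share any other alteration. Whether a population was a clone or a pool, whether replicates came from separate cultures, and which bases the guides match are not stated in the labels. The p-values therefore measure only the spread between these libraries, which may be technical, and a property of 1 cloned population cannot be told apart from the effect of the guide.

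RIPK2 is a kinase that binds the intracellular receptors NOD1 and NOD2 after these have sensed fragments of bacterial cell wall. Ubiquitin chains then build up on RIPK2 through XIAP and the LUBAC ligase, and the TAB2-TAK1 and IKK kinases relay the signal to NF-kB, JNK and p38. The study asked which transcripts change in prostate cancer cells when RIPK2 is knocked out.

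Levels are in CPM, which corrects counts for library size, and a gene counts as changed at a Benjamini-Hochberg adjusted p below 0.05 in edgeR's quasi-likelihood test over all genes tested. Library totals ran from 17958558 to 19417954 counts. A library stood apart from its own group. gRNA 1 replicate 3 had a mitochondrial share of 16.65% of counts (95% Wilson interval from 16.63 to 16.67%), against 2.10% and 1.92% in replicates 1 and 2 and 0.515 to 1.28% in the control. Its log2 CPM correlated across genes with those of replicates 1 and 2 at 0.973 and 0.974, while replicates 1 and 2 correlated at 0.997. Results are therefore given with this library and, where it moves them, without it. The summed share of 14 luminal prostate markers in the counts was 0.316 to 0.329% in the control and 0.252 to 0.262% with gRNA 1. The prostate lineage factor HOXB13 was at 313 to 367 CPM in the control and 134 to 147 CPM with gRNA 1, and FOXA1, another such factor, was at 366 to 485 CPM over the 6 libraries. PTPRC, the pan-leukocyte marker, had at most 2 counts in a library, CD3E of T cells had at most 1, and none of 8 endothelial markers passed the filter.

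RIPK2 mRNA was lower with gRNA 1 but was not lost. RIPK2 (GRCh38 chr8:89757816-89791064) stood at 15.8, 18.2 and 16.1 CPM in the control, at 9.41, 8.32 and 8.32 CPM with gRNA 1 and at 5.57, 5.36 and 5.20 CPM with gRNA 10. The 3 groups did not overlap. The mean fell from 16.7 ± 1.29 CPM (SD, n = 3) to 8.68 ± 0.633 CPM (SD, n = 3), or 52.0% of the control, with a log2 fold change of -0.94 (SE 0.12, adjusted p 8.76e-05 by edgeR). Without replicate 3 the change was -0.92. gRNA 1 left more RIPK2 mRNA than gRNA 10, by 0.69 on the log2 scale in the test between these groups (adjusted p 0.00134 by edgeR). A frameshift need not lower an mRNA, and protein was not analysed here. In bulk RNA, fewer cells with a transcript and less of it in each cell cannot be told apart.

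NOD1, the receptor upstream of RIPK2 (chr7:30424527-30478784), was higher with gRNA 1. It stood at 4.10, 4.51 and 3.69 CPM in the control, at 9.47, 9.18 and 13.4 CPM with gRNA 1 and at 4.08, 3.404 and 3.81 CPM with gRNA 10. The gRNA 1 libraries lay above the other 6, and the control and gRNA 10 ranges overlapped. NOD1 rose by a log2 fold change of 1.38 (SE 0.18, adjusted p 0.000124 by edgeR), or 1.17 without replicate 3, and exceeded gRNA 10 by 1.503 (adjusted p 0.000103 by edgeR). NOD2 had at most 1 count in any of the 9 libraries and was not tested. MAP2K7, a kinase of the JNK cascade, stood at 65.7, 59.2 and 70.1 CPM in the control and at 63.0, 63.2 and 76.6 CPM with gRNA 1, and these ranges overlapped.

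Of 35 listed genes of NOD and RIPK2 signalling, 32 passed the filter. Among these 5 rose and 9 fell with gRNA 1, beside 25.6% of all genes tested that rose and 22.9% that fell. The members called were 14 of 32, and the background of calls in either direction was 48.5%. The list's median log2 fold change was -0.06, against 0.024 over all genes tested. The adaptor TAB2, which links ubiquitin chains to TAK1, was at 78.3, 94.8 and 78.5 CPM in the control and at 44.0, 44.1 and 33.1 CPM with gRNA 1. It fell by 1.05 on the log2 scale (SE 0.13, adjusted p 7.96e-05 by edgeR). MAPK8, which encodes the kinase JNK1, fell from 73.5 to 85.1 CPM to 39.7 to 52.4 CPM, a log2 fold change of -0.73. The subunits of LUBAC moved the other way. RBCK1 rose by 0.95, RNF31 by 0.59 and SHARPIN by 0.56, and each of them was higher in all 3 gRNA 1 libraries than in the control.

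Targets of NF-kB that could be tested changed in both directions. Of 42 listed targets, 20 passed the filter, and 5 rose and 2 fell, which is 35.0% called against 48.5% of all genes tested. The median was -0.123, and without replicate 3 there were 5 rises, 5 falls and a median of -0.011. Over all genes tested without that library 27.4% rose and 27.1% fell. The atypical IkB protein NFKBIZ was at 7.996, 8.65 and 8.73 CPM in the control and at 24.2, 25.2 and 41.8 CPM with gRNA 1. Its log2 fold change was 1.84 (SE 0.20, adjusted p 3.19e-05 by edgeR), and 1.54 without replicate 3. IER3, a survival gene, rose by 2.23, RELB, a subunit of NF-kB itself, by 1.796 and BCL3, a nuclear cofactor of NF-kB, by 1.55. The dendritic cell antigen CD83 fell from 2.03 to 2.99 CPM to 0.160 to 0.653 CPM. NFKBIA, the feedback inhibitor of NF-kB, was at 54.5, 53.1 and 54.2 CPM in the control and at 48.8, 49.7 and 27.4 CPM with gRNA 1, a log2 fold change of -0.36 that did not pass (adjusted p 0.13 by edgeR). TNFAIP2 was at 7.61 CPM in replicates 1 and 2 and at 18.5 CPM in replicate 3, against 18.9 to 21.3 CPM in the control.

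Beyond this pathway, a large part of the transcriptome differed between the gRNA 1 and control populations. Of 15198 genes tested, 3896 rose (25.6%) and 3481 fell (22.9%), the shares beside which the list counts below stand. Among the genes changed, 2614 (17.2% of the genes tested) also reached an absolute log2 fold change of 1. Without replicate 3, 8391 of 15380 genes changed (54.6%), of which 4219 rose (27.4%) and 4172 fell (27.1%), and 2423 (15.8%) reached that fold. Of the 7377 calls made with all libraries, 7010 were also made without replicate 3 and in the same direction, 0 in the opposite direction, and 367 were lost, while 1313 genes were called only without it. The common biological coefficient of variation was 14.2% with that library and 7.13% without. In 8456 genes (55.6%) the gRNA 1 and control libraries did not overlap.

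The largest rises were in genes that were silent or nearly so in the control. CD69 (chr12:9752486-9760901), a lectin known as an early activation antigen of lymphocytes, had 0 counts in every control library and reached 156, 150 and 125 CPM with gRNA 1. This is at least 894-fold higher, computed against a floor of 3 counts per library. It was also at 0 counts in the gRNA 10 libraries. BEX1 (chrX:103062651-103064171), a small adaptor protein best known from neurons, was at 0 counts in the control, at 67.0, 69.7 and 68.9 CPM with gRNA 1 and at 32.3, 33.1 and 28.8 CPM with gRNA 10. The rise with gRNA 1 was at least 427-fold, while its relative BEX2 had 837, 921 and 926 counts in the control libraries where BEX1 had none. HNMT, which methylates histamine, went from 0 counts to 12.7, 11.1 and 9.33 CPM, at least 68.6-fold higher. ITPRIPL1 went from 0 counts to between 5.13 and 6.17 CPM, at least 35.3-fold higher. CFC1, a cofactor of Nodal signalling with a near-identical copy in the genome, went from 0 counts to 5.32, 4.43 and 12.5 CPM, which leaves its level uncertain. In the gRNA 10 libraries HNMT was at 9.90 to 11.1 CPM, ITPRIPL1 at 3.76 to 4.49 CPM and CFC1 at 0.103 CPM or less.

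SSPN (chr12:26121991-26234777), sarcospan of the dystrophin complex, was at 0.267, 0.645 and 0.161 CPM in the control, at 335, 306 and 237 CPM with gRNA 1 and at 0.723, 0.980 and 0.772 CPM with gRNA 10. The gRNA 1 libraries stood far above the other 6, with a log2 fold change of 9.65 against control (SE 0.28, adjusted p 3.17e-09 by edgeR) and 8.46 against gRNA 10. The circadian repressor BHLHE41 (chr12:26120030-26125037), whose annotated span overlaps that of SSPN, went from 1.28, 2.42 and 1.82 CPM to 208, 194 and 153 CPM. Its log2 fold change was 6.65 (SE 0.20), and the share of reads counted for each gene of this overlapping pair is uncertain. GATA3, a transcription factor of luminal epithelia and T cells, went from 1.01, 0.698 and 0.535 CPM to 103, 103 and 154 CPM. It rose by 7.31 (SE 0.26, adjusted p 1.34e-08 by edgeR), or 7.09 without replicate 3. FIBCD1, a receptor for acetylated sugars, rose by 6.43 and stood at 28.98, 29.8 and 58.3 CPM with gRNA 1. The neurofilament subunit NEFL was at 0.0533, 0 and 0 CPM in the control and at 5.69, 7.29 and 8.14 CPM with gRNA 1. With gRNA 10 BHLHE41 was at 4.95 to 5.25 CPM, GATA3 at 5.16 to 7.12 CPM, FIBCD1 at 21.2 to 24.6 CPM and NEFL at 0.0516 CPM or less.

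The largest falls included genes of the extracellular matrix and of lipid handling. ECM1 (chr1:150508109-150513789), a secreted matrix protein, was at 1079, 1026 and 1158 CPM in the control and at 1.86, 1.30 and 2.38 CPM with gRNA 1. The log2 fold change was -9.21 (SE 0.24, adjusted p 1.82e-09 by edgeR). ADAMTSL4 (chr1:150549408-150560937), a matrix protein encoded close to ECM1, fell by 6.19 on the same scale, from 218, 196 and 250 CPM to 2.07, 2.32 and 4.81 CPM. COL9A2, a chain of cartilage collagen, went from 974, 782 and 1029 CPM to 2.18, 3.402 and 8.32 CPM, a log2 fold change of -7.66, or -8.39 without replicate 3. FABP7, a fatty acid carrier, went from 215, 254 and 211 CPM to 0.213, 0.216 and 0.178 CPM, a log2 fold change of -10.08. The lipase LPL went from 233, 261 and 215 CPM to 0.904, 0.648 and 1.60 CPM, a log2 fold change of -7.82. All gRNA 1 libraries lay below all control libraries in these 5 genes.

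HSD3B1, an enzyme that makes androgen precursors, went from 5.54, 6.23 and 5.46 CPM to 0 counts in each gRNA 1 library, at least 34.5-fold lower. TGM4, a transglutaminase of the prostate, was at 14.1, 17.1 and 16.8 CPM in the control and at 0.106, 0 and 0 CPM with gRNA 1. IFI44L, an interferon-induced gene, fell by 6.16, PAX1, a developmental transcription factor, by 5.93 and PHACTR1, a regulator of actin and phosphatase 1, by 5.88. GC, the vitamin D carrier of plasma, moved apart in the populations. It was at 79.7, 83.3 and 82.1 CPM in the control, at 1.17, 1.57 and 0.891 CPM with gRNA 1 and at 173, 175 and 176 CPM with gRNA 10. The 3 groups did not overlap, and gRNA 1 differed from gRNA 10 by -7.16 on the log2 scale (adjusted p 7.17e-10 by edgeR).

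**Figure D1:**
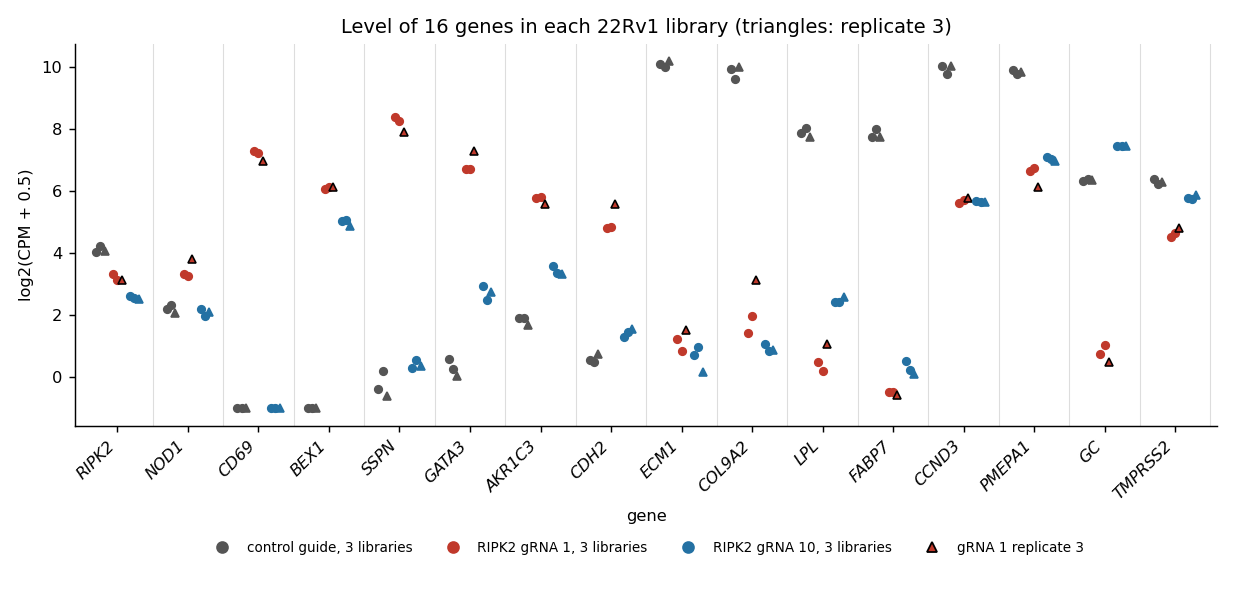
Level of 16 genes in the 9 libraries of 22Rv1, as log2 of CPM plus 0.5, by group (control, gRNA 1, gRNA 10); each point is a library and triangles mark replicate 3. CD69 stood at 125 to 156 CPM with gRNA 1 and at 0 in the other 6 libraries, ECM1 and COL9A2 were low in both RIPK2 groups, and GC was low with gRNA 1 alone.

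The start regions of a gene that went from 0 counts to expressed (BEX1), of a gene that went from traces to high (SSPN) and of a gene that was nearly lost (ECM1) are shown to set these switched genes side by side. Each is the 250 bases before the RefSeq transcript start on GRCh38.p14, written 5′ to 3′ on the gene's strand, with CG pairs, the sites of DNA methylation, in capitals. BEX1 (chrX:103064172-103064421, minus strand) held 19 CG pairs, SSPN (chr12:26195086-26195335, plus strand) 5 and ECM1 (chr1:150507859-150508108, plus strand) 1, against a median of 21 over the 11484 genes tested that had a sequence. The SSPN window lies before a RefSeq transcript start inside the annotated span of the gene, not before the first base of that span. Which start was used in these cells, and methylation, were not analysed here.
BEX1: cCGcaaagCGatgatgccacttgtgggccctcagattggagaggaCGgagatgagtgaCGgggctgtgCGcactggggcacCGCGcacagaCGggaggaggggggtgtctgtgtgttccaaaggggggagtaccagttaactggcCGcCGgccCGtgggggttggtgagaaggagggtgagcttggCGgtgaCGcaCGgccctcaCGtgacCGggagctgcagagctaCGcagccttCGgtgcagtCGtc
SSPN: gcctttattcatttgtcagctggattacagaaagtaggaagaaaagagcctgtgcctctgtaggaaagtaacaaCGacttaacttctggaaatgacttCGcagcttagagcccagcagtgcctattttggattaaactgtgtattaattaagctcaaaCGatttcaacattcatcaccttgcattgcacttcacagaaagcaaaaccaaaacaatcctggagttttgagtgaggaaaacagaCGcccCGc
ECM1: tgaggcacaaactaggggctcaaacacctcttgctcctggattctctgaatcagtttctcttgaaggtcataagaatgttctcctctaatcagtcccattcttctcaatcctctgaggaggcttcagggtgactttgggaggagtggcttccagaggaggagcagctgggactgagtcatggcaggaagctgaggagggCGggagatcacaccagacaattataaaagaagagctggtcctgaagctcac

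Genes listed as responsive to androgen in the prostate were mostly lower with gRNA 1. The list does not sort its members, FOLH1 among them, by the direction in which androgen moves them. Androgen maintains the secretory programme of luminal prostate cells. Of 36 listed androgen-responsive genes, 33 passed the filter, and of these 24 fell and 1 rose. The median was -0.795, and the medians of the single libraries against the control mean were -0.721, -0.693 and -1.208 in replicates 1, 2 and 3. Without replicate 3 the list held 26 falls and 3 rises and a median of -0.638.

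PMEPA1, a membrane protein induced by androgen and by TGF-beta, fell most. It was at 946, 875 and 915 CPM in the control and at 100, 105 and 69.6 CPM with gRNA 1, a log2 fold change of -3.31 (SE 0.15, adjusted p 5.61e-08 by edgeR). TMPRSS2, a serine protease of the luminal surface, was at 82.3, 75.1 and 78.5 CPM in the control and at 22.5, 24.7 and 27.4 CPM with gRNA 1. It fell by 1.66 (SE 0.10, adjusted p 5.82e-07 by edgeR) and differed from gRNA 10 by -1.15. FOLH1, which encodes the prostate-specific membrane antigen, went from 151, 176 and 151 CPM to 46.8, 46.3 and 60.5 CPM, a log2 fold change of -1.64. In each of these 3 genes all gRNA 1 libraries lay below all control libraries. The metalloreductases STEAP1 and STEAP2 fell by 2.03 and 1.95, the phosphatase PLPP1 by 2.44 and the secreted glycoprotein AZGP1 by 2.05.

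FKBP5, the chaperone of steroid receptors, depended on the library. It was at 812, 893 and 785 CPM in the control, at 662, 635 and 358 CPM with gRNA 1 and at 350, 356 and 353 CPM with gRNA 10. Its log2 fold change of -0.59 became -0.36 without replicate 3, and both passed the threshold. Of the kallikrein proteases in the list, KLK15 fell by 0.79, and KLK2, KLK3 and KLK4 did not pass with all libraries. KLK3, which encodes prostate-specific antigen, was at 19.8, 19.1 and 21.5 CPM in the control, at 17.7, 17.4 and 28.8 CPM with gRNA 1 and at 36.5, 31.5 and 36.6 CPM with gRNA 10. Its difference from control was 0.08 with all libraries (adjusted p 0.737 by edgeR) and -0.21 without replicate 3 (adjusted p 0.105 by edgeR), and it lay below gRNA 10 with a log2 difference of -0.72 (adjusted p 0.00945 by edgeR). KLK2 was at 91.9, 98.3 and 109 CPM in the control and at 81.6, 88.3 and 135 CPM with gRNA 1, with overlapping ranges. Without replicate 3 its difference of -0.24 passed the threshold (adjusted p 0.0247 by edgeR). KLK4 was at 486 to 731 CPM with gRNA 1 and at 469 to 622 CPM in the control, but at 99.4 to 107 CPM with gRNA 10. STEAP4 was the only gene of this list that rose with all libraries, to 3.08, 3.24 and 1.37 CPM from at most 0.215 CPM.

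The promoter of KLK3 is shown because, of the 22 listed androgen-responsive genes with a start region in the RefSeq table, it alone holds AGAACA, the half-site of steroid response elements (either strand). The half-site occurred in 7.45% of the 11484 start regions of genes tested. The window is chr19:50854665-50854914 on GRCh38.p14, plus strand, and the half-site in capitals begins 170 bases before the RefSeq start. A match is a description of letters and not a measured binding site.
KLK3: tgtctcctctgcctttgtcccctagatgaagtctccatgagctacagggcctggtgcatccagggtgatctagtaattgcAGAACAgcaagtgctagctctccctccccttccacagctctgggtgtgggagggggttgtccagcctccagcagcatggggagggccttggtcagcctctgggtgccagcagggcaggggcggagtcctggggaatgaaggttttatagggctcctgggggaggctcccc

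**Figure D2:**
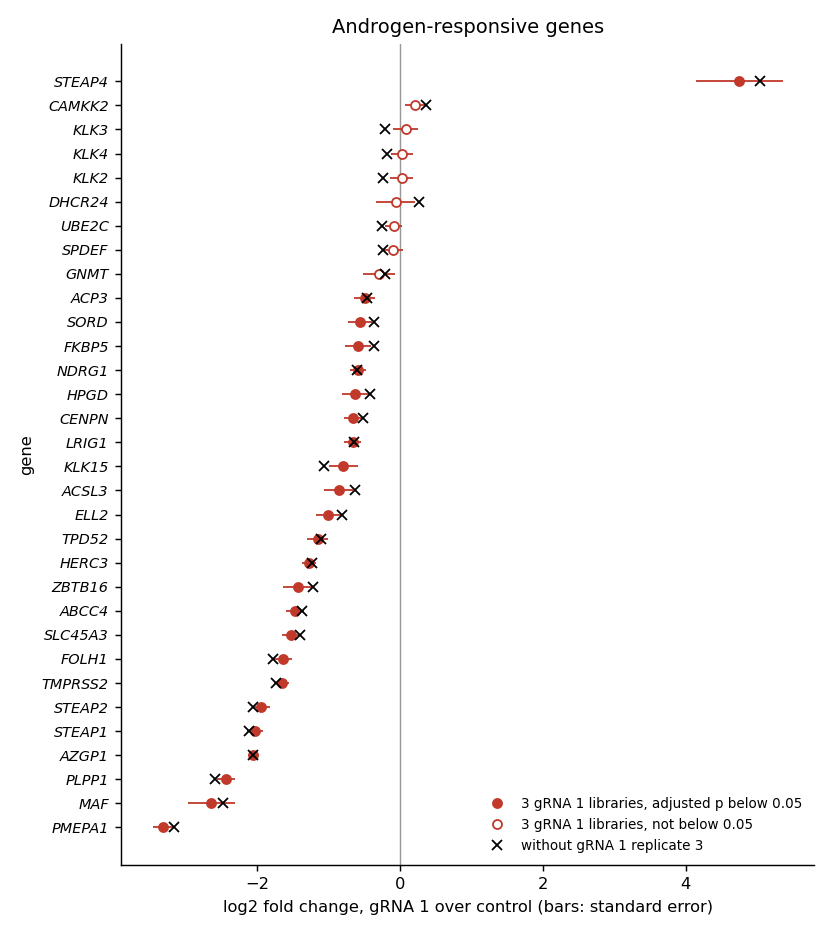
Log2 fold change of gRNA 1 against control for 32 of the 33 androgen-responsive genes of the list that passed the filter; bars are 1 SE, filled points have an edgeR adjusted p below 0.05, open points do not, and crosses give the value without replicate 3. In the plot 23 filled points lie below 0 and STEAP4 lies above it.

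Of 14 luminal prostate markers tested 8 fell and 3 rose, with a median of -0.281, and the 3 that rose were keratins. HOXB13 was at 367, 313 and 358 CPM in the control and fell by 1.28 (SE 0.09, adjusted p 1.56e-06 by edgeR). KRT8 went from 184, 154 and 181 CPM to 251, 261 and 293 CPM, a log2 fold change of 0.63, and KRT18 rose by 0.65. Both lie on chromosome 12, where 50.4% of genes rose and the median was 0.396 (given with the chromosomes). KRT19 rose by 1.12 with all libraries and by 0.58 without replicate 3, which held 24.9 CPM against 10.3 and 10.96 CPM in the others.

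Many genes of cell division were lower, led by a D-type cyclin. Of 54 listed cell cycle genes, all passed the filter, 28 fell and 3 rose, and the median was -0.299 (33 falls, 4 rises and -0.244 without replicate 3). CCND3, the cyclin that activates CDK4 and CDK6 at the start of the cycle, was at 1045, 875 and 1046 CPM in the control and at 47.9, 52.4 and 53.8 CPM with gRNA 1. Its log2 fold change was -4.27 (SE 0.11, adjusted p 1.53e-09 by edgeR), and gRNA 10, at 49.1 to 50.6 CPM, differed from gRNA 1 by 0.04 (adjusted p 0.754 by edgeR). CCNE1, the cyclin of the entry into DNA synthesis, was at 17.6, 18.5 and 21.0 CPM in the control, at 7.71, 7.07 and 9.33 CPM with gRNA 1 and at 20.3, 18.2 and 20.1 CPM with gRNA 10. It fell by 1.25 against control and differed from gRNA 10 by -1.28. MYBL2, a transcription factor of dividing cells, fell by 0.89, the replication helicase subunit MCM2 by 0.70 and CDK1, the kinase of mitotic entry, by 0.64. The proliferation marker MKI67 had a log2 fold change of -0.27 that did not pass (adjusted p 0.0569 by edgeR). CCND1 had -0.17 and did not pass, and MCM7, another subunit of that helicase, rose by 0.38. MCM2 lies on chromosome 3, whose genes had a median of -0.592, and MCM7 on chromosome 7, whose genes had 0.56 (given with the chromosomes).

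Targets of p53, the stress-activated tumour suppressor, rose more often than they fell. Of 36 listed targets 35 passed the filter, and 14 rose (40.0%) and 8 fell (22.9%), beside 25.6% and 22.9% of all genes tested. The median was 0.332 (19 rises, 10 falls and 0.359 without replicate 3). CDKN1A, the p21 inhibitor of cyclin-dependent kinases, was at 21.4, 20.6 and 20.6 CPM in the control and at 114, 113 and 84.7 CPM with gRNA 1. It rose by 2.32 (SE 0.13, adjusted p 2.72e-07 by edgeR). PHLDA3, an inhibitor of AKT, rose by 3.13, the stress cytokine GDF15 by 2.62 and the kinase PLK2 by 2.59. BAX, which permeabilises mitochondria, was at 55.9, 41.5 and 55.4 CPM in the control, at 83.8, 86.7 and 115 CPM with gRNA 1 and at 45.6, 42.3 and 37.7 CPM with gRNA 10. TP53I11 fell by 1.01 and TP53INP1 by 0.95, and MDM2, the ligase that degrades p53, was at 116, 134 and 112 CPM against 119, 120 and 105 CPM.

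MYC, the growth transcription factor, was lower with gRNA 1. It was at 429, 374 and 387 CPM in the control, at 252, 263 and 265 CPM with gRNA 1 and at 352, 343 and 345 CPM with gRNA 10. The gRNA 1 libraries lay below the other 6, with a log2 fold change of -0.61 (SE 0.08, adjusted p 0.000154 by edgeR) against control and -0.41 against gRNA 10 (adjusted p 0.00257 by edgeR). Of 42 listed MYC targets and ribosome biogenesis genes 41 passed the filter, 15 fell and 7 rose, and the median was -0.105. ODC1, the first enzyme of polyamine synthesis, fell by 0.69 and the nucleolar GTPase GNL3 by 0.70, while SHMT2, the mitochondrial serine hydroxymethyltransferase, rose by 0.74. Of 71 cytosolic ribosomal protein genes, 24 fell and 2 rose, with a median of -0.163 (34 falls and 1 rise without replicate 3). The 3 largest falls, RPL15 by 1.01, RPSA by 0.99 and RPL35A by 0.91, were of genes on chromosome 3, whose genes were lower as a whole (given with the chromosomes). GNL3 also lies on chromosome 3, and SHMT2 lies on chromosome 12, whose genes were higher as a whole.

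Several ligands of the EGF receptor family rose. These ligands are shed from the membrane and bind EGFR and its relatives, which signal through ERK, and the Sprouty proteins and dual-specificity phosphatases are ERK-induced brakes on that signal. Of 21 listed genes 17 passed the filter, 11 rose and 3 fell, and the median was 0.478. The ligand AREG was at 0.267, 0.269 and 0.214 CPM in the control, at 13.0, 13.8 and 11.1 CPM with gRNA 1 and at 1.497, 1.44 and 2.83 CPM with gRNA 10. It rose by 5.62 (SE 0.32, adjusted p 3.13e-07 by edgeR) and exceeded gRNA 10 by 2.71. The ligand EPGN went from at most 0.161 CPM to 2.50, 2.54 and 1.19 CPM, and BTC rose by 1.43. SPRY4, a Sprouty, went from 1.49, 1.99 and 2.09 CPM to 36.9, 39.1 and 27.5 CPM, a log2 fold change of 4.21 (SE 0.19, adjusted p 6.59e-08 by edgeR). The receptors moved apart. EGFR fell by 0.57, to 24.1, 22.6 and 17.3 CPM from 33.3, 32.7 and 29.4 CPM, and differed from gRNA 10 by -1.21. ERBB4 fell by 1.08, while ERBB2 rose by 0.44 and ERBB3 by 0.22.

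Immediate early genes, which growth factors and stress induce within minutes, were higher, and for several of them replicate 3 set the size. All 29 listed genes passed the filter, and 22 rose and 1 fell. Their median was 1.47 with all libraries and 0.797 without replicate 3, when 20 rose and 1 fell. The medians of the single libraries were 0.679, 0.695 and 1.855 in replicates 1, 2 and 3, and 0.522 to 0.554 with gRNA 10. CCN2, a matricellular target of YAP, was alike in the replicates, at 25.8, 24.2 and 24.6 CPM against 1.01, 0.645 and 0.857 CPM in the control. It rose by 4.88 (SE 0.17, adjusted p 9.99e-09 by edgeR). DUSP4, a phosphatase of ERK, went from 25.3, 22.0 and 24.4 CPM to 63.6, 64.6 and 63.5 CPM and stood at 22.5 to 25.5 CPM with gRNA 10. It rose by 1.42 against control and exceeded gRNA 10 by 1.39.

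FOS, a subunit of AP-1, was at 2.77, 2.47 and 3.48 CPM in the control and at 7.66, 6.43 and 324 CPM with gRNA 1. Its log2 fold change was 5.27 with all libraries and 1.26 without replicate 3, and it passed the threshold both ways. FOS lost the call in 6 of 16 alternative settings, and 1 further setting gave no adjusted p. Among the 6 were the fits without control replicate 1, 2 or 3 (adjusted p 0.0692, 0.0563 and 0.0667 by edgeR). EGR1, a zinc finger factor, was at 12.3, 13.4 and 14.2 CPM in the control and at 39.0, 39.5 and 441 CPM with gRNA 1, with log2 fold changes of 3.70 and 1.55. JUN went from 27.3, 23.9 and 28.2 CPM to 60.3, 63.3 and 247 CPM, with log2 fold changes of 2.22 and 1.21. FOSB was at 2.34 and 1.84 CPM in replicates 1 and 2 and at 109 CPM in replicate 3, against 2.51 to 3.00 CPM in the control. Its difference turned from 3.76 (adjusted p 0.0715 by edgeR) to -0.41 (adjusted p 0.101 by edgeR) without replicate 3.

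The promoter of EGR1 is shown because it holds 2 CArG boxes, the element that binds serum response factor, in capitals and beginning 105 and 83 bases before the RefSeq start. The window is chr5:138465229-138465478 on GRCh38.p14, plus strand. A CArG box in either strand was found in 110 of 11484 start regions of genes tested (0.958%) and in 2 of the 22 listed immediate early genes with a sequence, EGR1 and SRF. SRF was at 85.3, 68.9 and 92.5 CPM in the control and at 85.1, 91.1 and 90.3 CPM with gRNA 1, with overlapping ranges.
EGR1: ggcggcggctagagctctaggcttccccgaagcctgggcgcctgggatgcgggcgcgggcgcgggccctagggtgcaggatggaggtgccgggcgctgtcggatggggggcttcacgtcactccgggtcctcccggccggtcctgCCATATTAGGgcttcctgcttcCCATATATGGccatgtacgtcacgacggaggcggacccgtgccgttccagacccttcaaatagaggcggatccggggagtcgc

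Detoxifying genes driven by NRF2, the factor activated by oxidants, rose in part. Of 28 listed genes 27 passed the filter, 12 rose and 1 fell, and the median was 0.251 (15 rises and 2 falls without replicate 3). AKR1C3, a ketosteroid reductase that also makes testosterone, was at 3.25, 3.22 and 2.68 CPM in the control, at 54.4, 55.7 and 47.7 CPM with gRNA 1 and at 11.4, 9.64 and 9.57 CPM with gRNA 10. It rose by 4.11 (SE 0.13, adjusted p 5.76e-09 by edgeR) and exceeded gRNA 10 by 2.37. AKR1C2 rose by 4.44 and AKR1C1 by 3.08, and since the AKR1C genes are near-identical copies, how the reads were divided among them is uncertain. The efflux pump ABCC2 rose by 3.57 and the quinone reductase NQO1 by 1.61. TKT, a transketolase, was the listed gene that fell, by 0.70. It lies on chromosome 3, whose genes had a median of -0.592 (given with the chromosomes).

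The genes of ATF4, the factor induced by amino acid shortage and by stress in the endoplasmic reticulum, also leaned upward. Of 40 listed genes 39 passed the filter, 18 rose and 6 fell, with a median of 0.208, or 0.372 without replicate 3. DDIT3, the stress factor CHOP, was at 29.6, 28.5 and 31.1 CPM in the control, at 70.5, 66.8 and 125 CPM with gRNA 1 and at 27.7, 25.9 and 24.4 CPM with gRNA 10. It rose by 1.55 (SE 0.21, adjusted p 0.000156 by edgeR) and exceeded gRNA 10 by 1.75. ASNS, which makes asparagine, rose by 0.80 and ATF4 by 0.53. PHGDH, the first enzyme of serine synthesis, went the other way, from 1040, 860 and 1057 CPM to 234, 237 and 162 CPM, a log2 fold change of -2.22 (SE 0.15, adjusted p 1.10e-06 by edgeR). EDEM1, a factor of protein disposal, fell by 0.99.

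Of 36 genes of cholesterol and fatty acid synthesis, all passed the filter, and 5 rose and 4 fell with all libraries against 16 and 6 without replicate 3. The median was -0.052 and 0.220, and the single-library medians were 0.118, 0.233 and -0.662. INSIG1, the sterol-regulated anchor of SREBP processing, was at 241, 271 and 233 CPM in the control and at 367, 366 and 86.8 CPM with gRNA 1. It passed the threshold only without replicate 3, with 0.55 (adjusted p 1.41e-05 by edgeR). HMGCS1, an early enzyme of the pathway, was at 1139, 1091 and 359 CPM with gRNA 1 and at 855, 1043 and 872 CPM in the control. The fatty acid elongase ELOVL6 fell in all 3 libraries, from 368, 455 and 373 CPM to 148, 149 and 104 CPM, a log2 fold change of -1.57.

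Genes of mesenchymal cells were raised in part. Of 33 listed genes 18 passed the filter, 10 rose and 3 fell, and the median was 0.877 (0.611 without replicate 3). CDH2, the N-cadherin of mesenchymal and neural cells, was at 0.960, 0.913 and 1.18 CPM in the control, at 27.2, 27.9 and 47.2 CPM with gRNA 1 and at 1.96, 2.22 and 2.42 CPM with gRNA 10. It rose by 5.06 (SE 0.26, adjusted p 1.83e-07 by edgeR) and exceeded gRNA 10 by 3.95. The smooth muscle genes ACTA2 and TAGLN rose by 3.67 and 1.98. FN1, fibronectin, fell by 1.5004, to 24.8, 27.9 and 29.1 CPM from 83.8, 75.5 and 72.3 CPM, and differed from gRNA 10 by -2.26. VIM, vimentin, fell by 0.51. Of 6 fibroblast and smooth muscle markers that passed the filter, 4 rose and 0 fell, and their summed share of the counts went from 0.0014 to 0.0017% to between 0.0035 and 0.0058%. The fibroblast genes DCN and COL1A2 had at most 2 counts in a library.

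Integrins, laminins and basement membrane genes moved in both directions. Of 32 listed genes 26 passed the filter, and 13 rose (50.0%) and 10 fell (38.5%), beside 25.6% and 22.9% of all genes tested. FRAS1, a basement membrane protein, went from 634, 523 and 473 CPM to 48.1, 55.7 and 42.2 CPM, a log2 fold change of -3.48 (SE 0.14, adjusted p 2.96e-08 by edgeR). LAMA3, a chain of the laminin that anchors epithelia, fell by 3.01, and LAMA5, a chain found in most basement membranes, rose by 1.45 with and 0.80 without replicate 3. The integrin subunit ITGA1 rose by 1.84. Of 38 genes of epithelial junctions that passed the filter, 10 rose (26.3%) and 13 fell (34.2%).

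Neuroendocrine markers, which some prostate cancers gain as luminal genes are lost, rose more often than they fell, but not all of them rose. Of 15 listed markers 11 passed the filter, and 7 rose (63.6%) and 2 fell (18.2%), beside 25.6% and 22.9% of all genes tested. The median was 0.687 with and 0.586 without replicate 3. Their summed share of the counts went from 0.0237 to 0.0244% to between 0.0437 and 0.0562%. Most of that gain in share lay in ENO2, a neuronal enolase that is also in the hypoxia and glycolysis list. ENO2 was at 73.7, 68.7 and 79.7 CPM in the control and at 262, 277 and 412 CPM with gRNA 1. Its log2 fold change was 2.10 (SE 0.16, adjusted p 3.20e-06 by edgeR). CHGA, chromogranin A, was at 3 counts or fewer in each control library, at 2.87, 3.402 and 9.51 CPM with gRNA 1 and at 47.9, 44.1 and 44.8 CPM with gRNA 10. SOX2 rose by 1.69. SYP, synaptophysin, fell by 0.53. INSM1 and NCAM1 did not pass the filter.

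Interferon response genes changed in both directions. Of 43 listed genes 34 passed the filter, and 12 rose (35.3%) and 6 fell (17.6%), beside 25.6% and 22.9% of all genes tested. The median was 0.245 with and 0.035 without replicate 3. ISG20, an exonuclease, rose by 1.60, RSAD2, an antiviral enzyme, by 1.45 and STAT2, a factor of interferon signalling, by 1.11. HERC5, the ligase that attaches ISG15, fell from 15.8, 16.4 and 13.2 CPM to 2.45, 2.00 and 1.37 CPM, a log2 fold change of -2.95 (SE 0.20). Of 19 genes of MHC class I presentation that passed the filter, 2 rose (10.5%) and 6 fell (31.6%). The peptide transporter TAP2 fell by 1.45 and HLA-B by 0.95.

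The larger changes of several further lists were in single genes. In the WNT list, 9 of 37 genes that passed the filter rose (24.3%) and 12 fell (32.4%), beside 25.6% and 22.9% of all genes tested. The stem cell receptor LGR5 rose by 2.89 and the transcription factor LEF1 by 2.35, while the secreted antagonist DKK1 fell by 1.31. Among 32 genes of fatty acid binding, uptake and oxidation, 9 rose (28.1%) and 14 fell (43.8%). The lipid droplet coat protein PLIN2 went from 19.0, 19.3 and 19.6 CPM to 4.10, 3.62 and 4.63 CPM, a log2 fold change of -2.23. PPARGC1A, a coactivator of mitochondrial genes, was at 6.77, 5.64 and 5.57 CPM in the control, at 20.3, 18.035 and 7.43 CPM with gRNA 1 and at 0.413, 0.309 and 0.360 CPM with gRNA 10. In the BCL2 family, 6 of 17 rose (35.3%) and 5 fell (29.4%), among them HRK, which promotes cell death, which rose by 2.51, and BCL2L11, which also does and fell by 1.30. In the hypoxia and glycolysis list, 13 of 36 rose and 9 fell, and the carbonic anhydrase CA12 rose by 2.04.

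The remaining lists held few calls or calls in both directions, in some of them with more falls than rises. Over all genes tested 25.6% rose and 22.9% fell. Of 11 BEX and TCEAL genes, 2 rose and 4 fell, or 1 and 7 without replicate 3. BEX4 (-0.80) and BEX2 (-0.40) were lower where BEX1 was higher. Of 50 nuclear genes of oxidative phosphorylation 5 rose and 6 fell (8 and 7 without replicate 3). For the mitochondrial expression machinery, 6 of 27 genes rose and 6 fell (22.2% each). Among 19 heat shock genes 2 rose and 6 fell (1 and 7 without replicate 3). Of 7 metallothioneins 2 rose and 3 fell, of 13 cancer testis antigens 1 rose and 3 fell (2 and 4 without replicate 3), and of 19 enzymes of DNA methylation 1 rose and 7 fell (2 and 8 without it). Of 4 basal markers 2 rose and 1 fell, or 1 and 1 without replicate 3. The monocyte marker CD14 did not pass the threshold, and HBA2, an alpha globin gene, was at 1.70, 1.51 and 2.67 CPM with gRNA 1 against at most 3 counts in each control library.

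**Figure D3:**
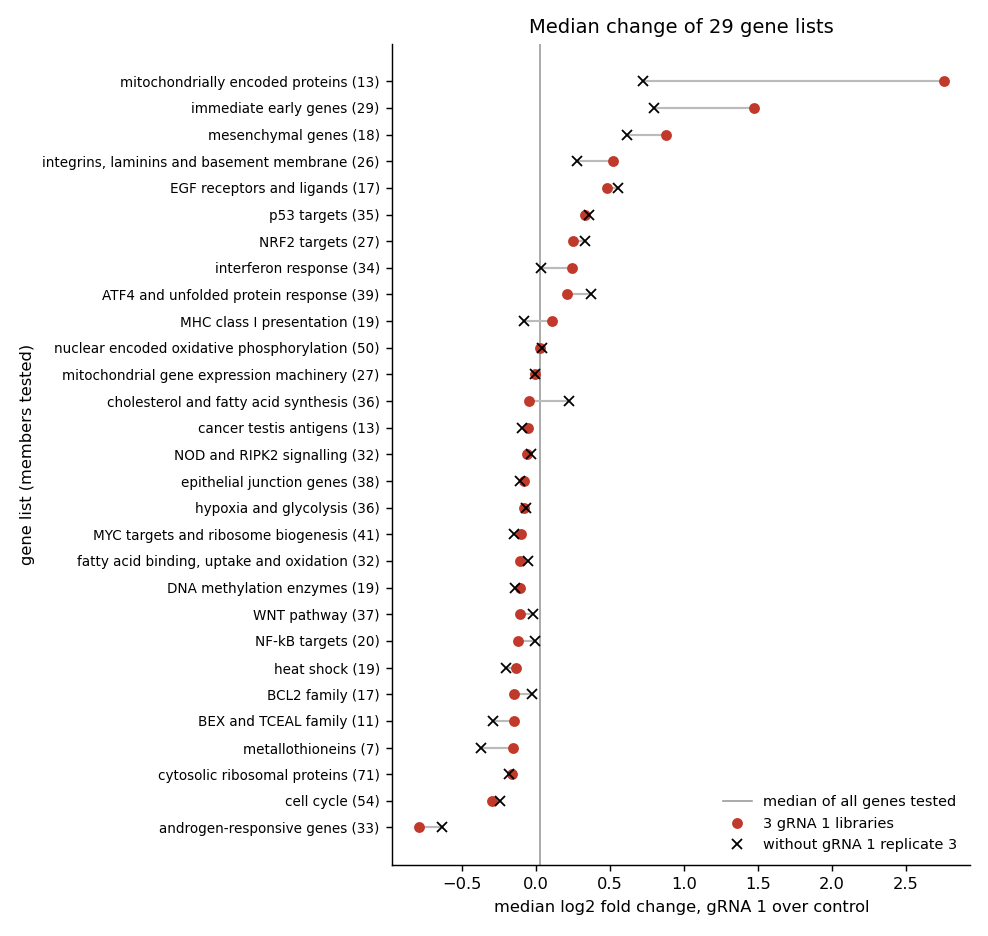
Median log2 fold change of gRNA 1 against control in 29 gene lists, over the members that passed the filter, with all libraries (dots) and without replicate 3 (crosses); the grey line is the median of all genes tested (0.024). Androgen-responsive genes lie lowest at -0.795, and the mitochondrially encoded and immediate early lists move most without replicate 3, from 2.76 to 0.724 and from 1.47 to 0.797.

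gRNA 1 replicate 3 was set against replicates 1 and 2 to show which genes it moves. Among 9957 genes with enough counts, 330 were at least 2-fold higher and 116 at least 2-fold lower in replicate 3 than in the mean of replicates 1 and 2, while 0 genes differed so between replicates 1 and 2. The highest were FOS, FOSB, MT-ND4L, EGR1, MT-CYB and MT-CO1. MT-CO1, a subunit of cytochrome oxidase encoded in mitochondria, was at 1020.5, 2369.8 and 2452 CPM in the control, at 4894, 4431 and 48346 CPM with gRNA 1 and at 3884.5, 4695 and 4161 CPM with gRNA 10. Of 13 mitochondrially encoded protein genes 8 rose and 0 fell with all libraries, and 2 rose without replicate 3. Their median was 2.76 and 0.724, and control replicate 1 lay at -0.869 against 0.396 and 0.477 in control replicates 2 and 3. The lowest genes of replicate 3 were INSIG1, CYP51A1, SLC12A2, LIPG, LYPLA1 and MSMO1, of which INSIG1, CYP51A1 and MSMO1 belong to sterol synthesis and its control. SLC12A2, an ion cotransporter, was at 73.6 and 70.8 CPM in replicates 1 and 2, at 20.7 CPM in replicate 3 and at 33.7 to 40.5 CPM in the control. LYPLA1, a depalmitoylating enzyme, was at 120, 114 and 34.3 CPM. Of the 36 genes of cholesterol and fatty acid synthesis, 15 were at least 2-fold lower in replicate 3. The cause of these differences in 1 library was not tested.

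**Figure D4:**
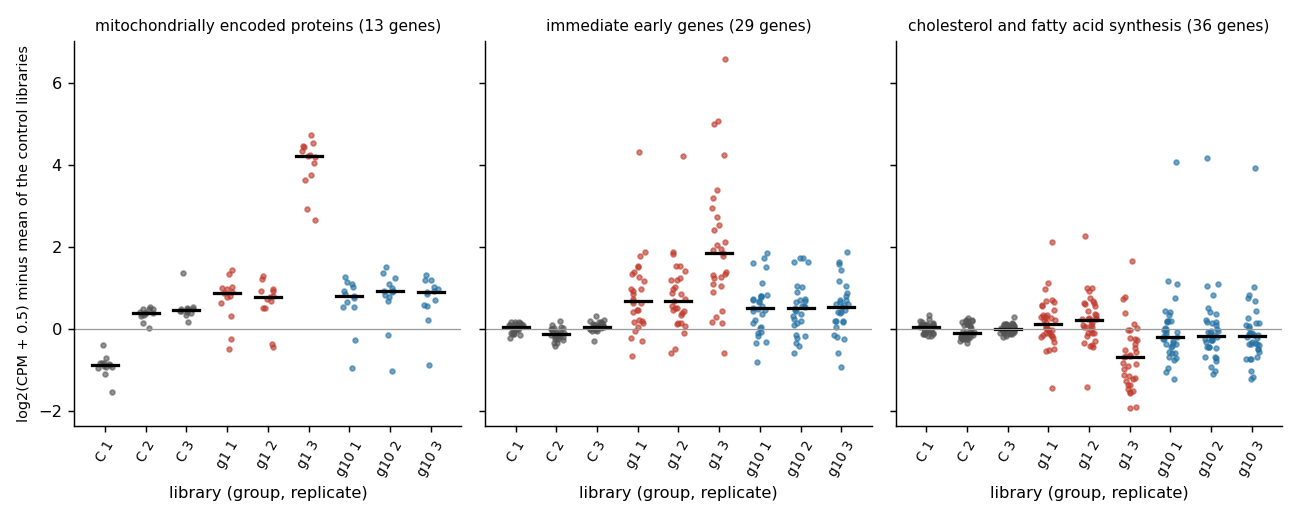
Log2 of CPM relative to the control mean for the members of 3 lists (mitochondrially encoded, immediate early, cholesterol and fatty acid synthesis) in each of the 9 libraries; dots are genes and black lines are medians. In gRNA 1 replicate 3 the medians are 4.216, 1.855 and -0.662, against 0.783 to 0.873, 0.679 to 0.695 and 0.118 to 0.233 in replicates 1 and 2.

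Changed genes were not spread evenly over the chromosomes. On chromosome 3, 554 of 877 genes tested fell (63.2%) and 70 rose, with a median log2 fold change of -0.592. On chromosome 7, 465 of 754 rose (61.7%) and 36 fell, with a median of 0.560, and on chromosome 12, 411 of 816 rose (50.4%) and 72 fell, with a median of 0.396. Without replicate 3 these medians were -0.573, 0.554 and 0.382. The medians of the 3 gRNA 1 libraries were -0.522, -0.526 and -0.656 on chromosome 3, 0.517, 0.525 and 0.528 on chromosome 7 and 0.368, 0.378 and 0.317 on chromosome 12. Chromosome 1, with 1500 genes, had a median of -0.045. The gRNA 10 libraries, compared with the same controls, had medians of -0.625, 0.397 and 0.438 on chromosomes 3, 7 and 12. Genes named above lie there, among them RPL15 and TGM4 on chromosome 3, NOD1 and INSIG1 on chromosome 7 and CD69, SSPN and BHLHE41 on chromosome 12. Without replicate 3 INSIG1 had 0.55, and the median of chromosome 7 from 150 to 160 Mb was 0.631. NFKBIZ on chromosome 3 rose and AZGP1 on chromosome 7 fell, against the medians of their chromosomes. How far a gene's change goes with its region was not tested. The distal part of chromosome 7 differed between the guides. In the window from 140 to 150 Mb, 49 of 60 genes rose with gRNA 1, and the median was 0.708 against -0.026 with gRNA 10. From 150 to 160 Mb the values were 0.678 and -0.028, whereas from 0 to 10 Mb they were 0.569 and 0.594. DNA copy number was not analysed here, and its part in these values was not tested.

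**Figure D5:**
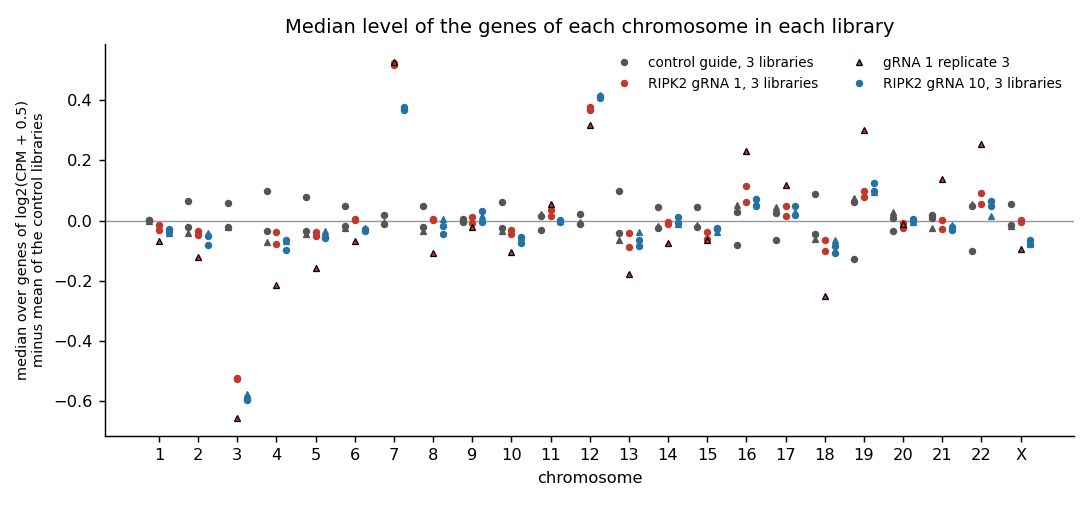
Median log2 of CPM relative to the control mean over the genes of each chromosome in the 9 libraries of 22Rv1; each point is a library and triangles mark replicate 3. Chromosome 3 lies at -0.522 to -0.656 and chromosome 7 at 0.517 to 0.528 with gRNA 1, while most other chromosomes lie near 0.

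The populations with gRNA 1 and gRNA 10 also differed from each other, in a contrast that uses no control library. Of 15198 genes 5410 differed (35.6%), 2864 higher with gRNA 1 (18.8%) and 2546 lower (16.8%), and 1981 (13.0%) reached an absolute log2 difference of 1. Without replicate 3, 6940 of 15380 genes differed (45.1%), 22.0% of genes higher and 23.1% lower with gRNA 1, and 12.8% reached that difference. The largest differences included genes that were at or near 0 in 1 of these populations. CD69 was at least 928-fold higher with gRNA 1 than with gRNA 10. HOXD8, a homeobox gene, was at 12.5, 13.1 and 15.1 CPM with gRNA 1, at 4.66 to 6.72 CPM in the control and at 0, 0 and 0.0515 CPM with gRNA 10. SLC7A8, an amino acid transporter, was at 28.3, 31.5 and 38.2 CPM with gRNA 1, at 17.2 to 18.6 CPM in the control and at 4526, 4399 and 4245 CPM with gRNA 10, a difference of -7.07 (SE 0.14, adjusted p 6.10e-10 by edgeR). The potassium channel KCNK17 was at 0.160 to 0.594 CPM with gRNA 1 and at 81.3 to 89.5 CPM with gRNA 10. ITGA8, an integrin subunit, and HERC6, a relative of HERC5, were at traces with gRNA 1 and in the control and at 12.3 to 13.4 CPM and 5.42 to 6.33 CPM with gRNA 10.

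Among the lists, ATF4 genes and androgen-responsive genes held many differences between the guides. Of 39 ATF4 and unfolded protein genes 20 were higher and 3 lower with gRNA 1 than with gRNA 10, and of 33 androgen-responsive genes 5 were higher and 20 lower, with a median of -0.496. HSPA5, the main chaperone of the endoplasmic reticulum, was at 1395, 1438 and 1275 CPM with gRNA 1 and at 825, 795 and 806 CPM with gRNA 10, a difference of 0.76 (adjusted p 4.45e-05 by edgeR). Of 11 BEX and TCEAL genes 9 were higher with gRNA 1 and 0 lower. The metallothionein MT1E, which binds zinc, was at 24.1, 24.6 and 30.6 CPM with gRNA 1, at 6.72 to 8.48 CPM in the control and at 0.670 to 1.03 CPM with gRNA 10, a difference of 5.02 (adjusted p 4.21e-08 by edgeR). Of 54 cell cycle genes 17 were lower and 0 higher with gRNA 1.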

How the data were processed

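Total RNA was isolated on spin columns and read as strand-specific mRNA libraries on the DNBSEQ platform (paired reads, 150 bases each), per the labels' protocols. FastQC, STAR and edgeR and the build hg38 are named in the submitters' processing notes, without versions or settings. The authors deposited raw read counts, with 24385 rows of gene symbols for 22Rv1 (24379 after 6 repeated symbols were summed), and 0 value columns were left unmapped. Groups and replicate numbers came from the titles, where the gRNA 1 replicates have other numbers than in the library names.

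Counts were fitted with edgeR 4.0.16 in R 4.3.3 over the 9 libraries of 22Rv1, with group as the only term, TMM factors (0.936 to 1.044), filterByExpr (minimum count 10, minimum total 15) and the robust two-sided quasi-likelihood test. p-values were adjusted over all genes tested, and the adjusted p had to be below 0.05. Standard errors came from the F statistic. A fold against a group at 0 counts was computed against 3 counts per library (0.154 to 0.178 CPM). Medians of single libraries used log2 of CPM plus 0.5. Intervals and floors cover counting error only, since reads carried no molecular identifiers. Coordinates and start regions (250 bases) are from RefSeq on GRCh38.p14, which matched 15131 and 11484 of the genes tested.

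The members and the 29 pathway and 7 marker lists were chosen with earlier results of these data known. By rule the named genes are RIPK2, KLK3, MYC, NOD1, NOD2 and MAP2K7, and the 10 largest rises and falls among 4925 genes called with and without replicate 3 that had no overlap of libraries and a mean of at least 100 counts (symbols that end in P and digits were left out, and with them FABP7, which is named through its list), up to 3 per direction in each list, 5 per direction against gRNA 10, and the 6 highest and 6 lowest genes of replicate 3. A Y-linked gene and some others that met the rule are not reported here, and other list members were named after their values were seen. On simulated counts for gRNA 1 against control, 200 genes were changed at each fold. Of these 43% were recovered at a fold of 1.5 (14524 genes, 10 false calls) and 82% at a fold of 2 (14517 genes, 9 false calls). In the data 48.5% of genes were called, and the simulation gave replicate 3 no deviation of its own. These rates therefore need not hold for the comparison itself. Alternatives were RLE factors, DESeq2 1.42.0, 2 other filters, only the 6 libraries compared, a replicate block, mitochondrial genes left out, and each library left out in turn.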

Additional observations from a re-analysis of the deposited data

Results flagged for a closer look

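For 4 genes named for their role, the effect of gRNA 1 differed from that of gRNA 10 in the direct test between these populations (edgeR quasi-likelihood test, adjusted over all genes). RIPK2 differed by 0.691 on the log2 scale (adjusted p 0.00134), with 3 of 3 gRNA 1 libraries above the 3 gRNA 10 libraries, and NOD1 by 1.503 (adjusted p 0.000103), also in 3 of 3. Lower with gRNA 1 were MYC, at -0.4142 (adjusted p 0.00257), and KLK3, at -0.7156 (adjusted p 0.00945), each in 3 of 3 libraries. No explanation of these differences was tested.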

How the results depend on the processing

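The 7377 genes changed with gRNA 1 became 5660 to 7479 under 7 other settings, of which DESeq2 gave the most and a fit of only the 6 libraries compared the fewest, and 6197 to 8391 when 1 library was left out. The count that also requires a log2 fold change of 1 was 1712 with at least 10 counts in every library and 2423 to 2954 when 1 library was left out. Of 178 named genes followed, 166 were called. In 149 of the 178, called or not, call and direction stayed the same in every alternative that tested the gene, up to 16. Some alternatives drop genes with low counts. Of those called, 19 lost the call in at least 1 alternative and 0 changed sign. Genes not called changed sign: MAP2K7 (-0.054 to 0.11 when 1 library was left out), KLK3 (-0.21 to 0.20), MSMO1 (-0.47 to 0.15), FOSB (-0.41 to 4.32), INSIG1 (-0.13 to 0.55, and -0.0035 with a replicate block), HERC6 (-1.23 to 0.23) and ITGA8 (-1.89 to 1.91, and -0.0016 with no filter). The medians of 15 of 29 lists moved by more than the SD of the 3 gRNA 1 library medians in at least 1 alternative, among them NF-kB targets (0.005 with at least 10 counts in every library, -0.265 to -0.011 when 1 library was left out), mitochondrially encoded proteins (0.724 to 3.221) and ATF4 genes (0.184 to 0.372). The chromosome 7 median was 0.506 with no filter, 0.544 with at least 10 counts, 0.553 with only the libraries compared or with mitochondrial genes left out, 0.549 with the block and 0.546 to 0.573 when 1 library was left out. That of chromosome 12 was 0.342 with no filter. Deviations from the group means correlated at 0.013, 0.166 and 0.545 in same-numbered control and gRNA 1 libraries. In pairs with different numbers they correlated at -0.586 to 0.402. Whether the replicate numbers pair the libraries cannot be decided from these values, because deviations from a mean of 3 libraries depend on each other. With the replicate block 7399 genes changed, and RIPK2 had -0.94 (edgeR adjusted p 0.000237). FOS and EGR1 were not called with it (edgeR adjusted p 0.125 and 0.0677). Depth limits genes such as NOD2, whose counts were too low to test. Except where a setting tests fewer genes or libraries, the cause was not tested.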
